A study of Mus musculus with 38 samples.

Results

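The cysteine and aspartic cathepsins measured here were 9 genes, Ctsb, Ctsc, Ctsd, Ctse, Ctsh, Ctsk, Ctsl, Ctss and Ctsz. They were found by the gene name written beside each probe in the array files, which matched 12 of the 41174 probes and 9 of the 28786 genes. Ctsb, Ctsd and Ctsz had 2 probes each and the others 1. RNA came from GFP+ cells that had been sorted by FACS from tumors of the MMTV-PyMT model, in which the polyoma middle T oncogene is driven by the mouse mammary tumor virus promoter. Hyperplasias of mice that also carried GFP under an actin promoter were transplanted into FVB/n hosts, so all groups shared both transgenes, and GFP marks every donor-derived cell type rather than tumor epithelium alone. The hosts were wild-type, so host cells without GFP lie outside the sorting gate, and how completely the sort removed them was not tested. On each of 38 two-color arrays the sample was labeled with Cy5 and a Universal mouse reference RNA with Cy3, and each value is the log2 ratio of sample to that reference.

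The progression arrays held 5 adenomas (outgrowths at 5 weeks), 6 carcinomas (18 weeks), 6 samples of disseminated tumor cells from lungs and 5 samples of lung metastases. For each disseminated sample, the lungs of 3 to 6 mice were pooled, and metastases were taken 8 to 10 weeks after the primary tumors had been removed by surgery. The RNA of these 22 samples went through 2 rounds of amplification. The chemotherapy arrays held 6 untreated tumors, 6 residual tumors taken 10 days after 1 dose of doxorubicin, docetaxel and cyclophosphamide (TAC), and 4 relapsed tumors taken after 4 doses. In the labels the residual samples carry the word regressed, and the relapsed samples, matched by elimination, the word resistant. The labels do not say whether samples of a group came from separate animals, so p-values measure only the spread between these samples.

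Cathepsins are proteases of the endosome and lysosome, made as inactive proenzymes that mature at acid pH. Ctsb, Ctsc, Ctsh, Ctsk, Ctsl, Ctss and Ctsz belong to the papain family of cysteine proteases, whereas Ctsd and Ctse are aspartic proteases. Ctss trims the invariant chain of MHC class II in antigen-presenting cells, Ctsc activates the serine proteases of granulocytes and cytotoxic lymphocytes, and Ctsk is the collagen-cleaving protease of osteoclasts. Both tumor cells and tumor-associated macrophages are known sources of cathepsins in mammary tumors. The question put to the arrays was how each gene varied between the stages and treatments, and which members followed markers of macrophages and which followed markers of tumor cells.

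The 22 genes of a macrophage list (Csf1r, Cd68, Adgre1, C1qa and others) and the 16 genes of a mammary tumor epithelium list (keratins, Epcam, claudins and others) were averaged on each array as log2 ratios. The macrophage mean lay between 0.10 and 0.47 in adenomas, between -0.47 and 0.60 in carcinomas 1 to 5, and between 3.23 and 4.46 in disseminated cells. Carcinoma replicate 6 stood apart at 4.35, and its median correlation with the other carcinomas was 0.76 over all genes, whereas carcinomas 1 to 5 were between 0.94 and 0.96. Metastases were split, with 0.53 and 1.03 in replicates 2 and 5 and 3.09, 3.72 and 4.55 in replicates 1, 3 and 4. The epithelium mean was 2.95 to 3.60 in adenomas, 2.17 to 3.73 in carcinomas, 0.46 to 3.19 in disseminated cells and 0.46 to 4.21 in metastases. All 22 macrophage genes were well above background on every array of disseminated cells and of metastases, against 16 of 22 in adenomas and 19 of 22 in carcinomas. Adenoma arrays also had fewer spots of any kind well above background. Their median share was 61.6%, beside 74.2% in carcinomas, 70.3% in disseminated cells and 74.6% in metastases. In sorted bulk samples, fewer cells of a type and less RNA per cell cannot be told apart. Carcinomas and metastases shared slides 1 to 3 and were scanned on a different day from adenomas and disseminated cells on slides 4 to 6, so only disseminated cells against adenomas and metastases against carcinomas could be compared within slides.

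The promoter windows of Ctss, Ctsk, Ctsc and Ctsd are printed because the first 3 of these genes had positive slopes on the macrophage list and Ctsd did not pass that test. Each window runs from 250 bases before to 10 bases after the gene start (RefSeq, GRCm38.p6), 5' to 3' on the strand of the gene. Windows were found for 6 of the 9 members, and the promoters of Ctsb, Ctse and Ctsh were not analysed here. Capitals mark matches, on either strand, to 3 motifs that were chosen after the windows had been read. These were the purine box GAGGAAG (reverse CTTCCTC), of the kind read by Ets-family factors such as PU.1, the E-box CACGTG, of the kind read by TFEB and its relatives, and the interferon response element, a pair of GAAA repeats 2 bases apart.
Ctss (chr3:95526536-95526795, plus strand): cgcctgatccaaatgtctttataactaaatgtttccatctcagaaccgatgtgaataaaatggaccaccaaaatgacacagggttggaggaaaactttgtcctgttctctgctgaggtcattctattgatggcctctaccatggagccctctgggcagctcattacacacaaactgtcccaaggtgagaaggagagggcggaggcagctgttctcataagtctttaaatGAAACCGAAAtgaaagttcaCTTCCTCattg
Ctsk (chr3:95498960-95499219, plus strand): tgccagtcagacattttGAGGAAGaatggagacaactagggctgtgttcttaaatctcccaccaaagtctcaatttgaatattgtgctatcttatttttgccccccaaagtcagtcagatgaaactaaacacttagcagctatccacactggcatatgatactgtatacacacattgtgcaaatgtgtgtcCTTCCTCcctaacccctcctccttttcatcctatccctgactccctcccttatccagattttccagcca
Ctsc (chr7:88277835-88278094, plus strand): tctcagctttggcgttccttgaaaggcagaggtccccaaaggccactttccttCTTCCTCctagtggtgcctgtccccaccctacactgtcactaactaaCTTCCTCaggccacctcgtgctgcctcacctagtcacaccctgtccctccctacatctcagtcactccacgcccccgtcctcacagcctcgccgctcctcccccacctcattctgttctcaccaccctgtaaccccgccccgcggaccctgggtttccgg
Ctsd (chr7:142387818-142388077, minus strand): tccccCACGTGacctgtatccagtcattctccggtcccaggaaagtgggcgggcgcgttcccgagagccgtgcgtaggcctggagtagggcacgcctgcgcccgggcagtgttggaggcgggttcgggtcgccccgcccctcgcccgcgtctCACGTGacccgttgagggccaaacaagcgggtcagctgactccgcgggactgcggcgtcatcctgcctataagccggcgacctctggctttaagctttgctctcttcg
In the Ctss window, an interferon-type repeat began 21 bases before the gene start and a purine box 1 base before it. Ctsk had 2 purine boxes, beginning at -233 and -59, and Ctsc had 2, at -197 and -150. Ctsd had 2 E-boxes, at -245 and -98, and the window of Ctsl (chr13:64370511-64370770, minus strand) held 1, at -236. None of the 3 motifs was found in the window of Ctsz (chr2:174439030-174439289, minus strand), a gene that also moved with the macrophage list. Over all 32851 promoter windows of this length, 11.1% held a purine box, 6.34% an E-box and 3.07% the interferon-type repeat. A match is a run of letters and does not show that a factor binds there. Ctsk and Ctss are neighbours on chromosome 3 and lie on the same strand.

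Ctss, the class II processing protease, had the widest range of log2 ratios among the members. In adenomas its log2 ratios were 0.80, -0.58, -0.89, 0.01 and 0.58, and in carcinomas the lowest was -2.09, the median -1.10 and the highest 7.77. In disseminated cells the lowest was 3.15, the median 7.07 and the highest 8.81, and in metastases the 5 values were 7.30, 1.51, 8.24, 8.42 and 1.71. The disseminated samples all lay above all adenomas and above carcinomas 1 to 5, whereas carcinoma 6 lay among them, and the 2 low metastases were the 2 with little macrophage signal. The fitted log2 difference from adenoma was 6.58 in disseminated cells (standard error 1.62, adjusted p = 0.00798) and 5.45 in metastases (standard error 1.69, adjusted p = 0.0204). Without metastases replicate 1, 3 or 4 the second call was lost (log2 differences of 4.98, 4.75 and 4.70, adjusted p = 0.0513, 0.0584 and 0.0601).

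Ctsz, a carboxypeptidase, was higher in both kinds of lung sample than in adenomas. The log2 ratios of Ctsz were -0.63, -0.97, -0.77, -0.88 and -0.90 in adenomas and 1.26, 0.22, 3.05, 4.24 and 0.05 in metastases. Carcinomas ran from -0.75 through a median of -0.58 to 3.56 and disseminated cells from 0.23 through 1.91 to 3.14. Every disseminated sample and every metastasis lay above every adenoma, and the only carcinoma above 0 was replicate 6. Ctsz was 2.64 higher in disseminated cells than in adenomas (standard error 0.79, adjusted p = 0.0222) and 2.60 higher in metastases (standard error 0.82, adjusted p = 0.0227). The first call was lost without disseminated replicate 1 (2.38, adjusted p = 0.0511), and the second without metastases replicate 3 (2.27, adjusted p = 0.0630) or 4 (1.98, adjusted p = 0.0750).

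Ctsb, an abundant endopeptidase that also has carboxydipeptidase activity, had log2 ratios of 1.42, 0.92, 0.46, 0.46 and 1.39 in adenomas, and of 0.64 at the lowest, 1.03 at the median and 4.03 at the highest in carcinomas. Disseminated cells ran from 1.70 through 3.82 to 5.24, all above the adenomas, and metastases were at 2.41, 0.77, 3.14, 3.45 and 0.90. Ctsb was thus 2.84 higher in disseminated cells than in adenomas (standard error 0.65, adjusted p = 0.00572). For metastases against adenomas the difference of 1.21 was not called (adjusted p = 0.202). The probe used lies on chromosome 14 at 58006948 to 58007007 (mm7), and the other Ctsb probe, at 58009173 to 58009232, gave 2.84 for the same comparison (adjusted p = 0.000736 in a fit over all probes), so the value in metastases depended on the probe, whereas both probes gave a rise in disseminated cells (2.84 and 2.91). In that fit metastases differed from carcinomas by 0.65 and 1.61 (adjusted p = 0.554 and 0.0312). They differed from disseminated cells by -1.63 and -0.08 (adjusted p = 0.109 and 0.949).

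Ctsc, the activator of granule serine proteases, had the largest log2 difference of the members between carcinomas and adenomas. Its log2 ratios were 2.75, 2.66, 0.65, 2.77 and 1.74 in adenomas and ran from 3.45 through 4.28 to 7.74 in carcinomas, so no carcinoma overlapped the adenomas. The difference between them was 2.54 (standard error 0.83), with an adjusted p of 0.0527 just outside the threshold, and 1.93 without carcinoma 6 (adjusted p = 0.0984). Disseminated cells ran from 3.92 through 5.53 to 7.71 and metastases were at 6.49, 4.33, 7.25, 7.71 and 4.12. Both lay wholly above the adenomas, by 3.44 (adjusted p = 0.00746) and 3.87 (adjusted p = 0.00266) on the log2 scale. Carcinomas 1 to 5, with low macrophage means, nevertheless had Ctsc at 3.45 to 4.51, above every adenoma.

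Ctsk, the collagenolytic cathepsin, was high in every sample from the lungs. Its log2 ratios were 0.87, -0.24, -1.05, -0.24 and -0.37 in adenomas and ran from -0.68 through -0.35 to 2.47 in carcinomas. Disseminated cells ran from 2.43 through 4.55 to 5.29, and metastases were at 2.94, 2.59, 5.32, 6.03 and 3.03. All 5 metastases lay above all 6 carcinomas, replicate 6 included, and the 2 metastases with low macrophage means, at 2.59 and 3.03, were no exception. The difference from adenoma was 4.24 in disseminated cells (standard error 0.70, adjusted p = 0.000787) and 4.19 in metastases (standard error 0.73, adjusted p = 0.000360). The difference from carcinoma was 3.95 (adjusted p = 0.000420) and 3.90 (adjusted p = 0.000929). The Ctsk probe was well above background on 3 of 5 adenoma arrays and on every other progression array, so its fold over adenoma rests on a dim baseline.

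Ctse, an aspartic protease found in immune cells and gastrointestinal epithelium, was higher in disseminated cells and not in metastases. Its log2 ratios were -0.51, -0.70, 0.48, 0.13 and -0.58 in adenomas, -0.82 to 0.94 with a median of -0.59 in carcinomas, and 0.67 to 2.57 with a median of 1.64 in disseminated cells. Metastases were at 0.47, -1.10, 0.51, 0.44 and -0.07, all below every disseminated sample. The difference of metastases from disseminated cells was -1.49 (standard error 0.38, adjusted p = 0.0133). Disseminated cells were 1.78 above adenomas (adjusted p = 0.00375) and 1.92 above carcinomas (adjusted p = 0.000938).

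Ctsd, the main aspartic protease of lysosomes, was higher in both kinds of lung sample than in adenomas. Ctsd log2 ratios were -0.14, 0.23, -0.48, -0.42 and -0.19 in adenomas and 0.73, 1.15, 1.36, 3.54 and 0.10 in metastases, with -0.13 to 1.18 (median 0.21) in carcinomas and 0.74 to 3.19 (median 1.44) in disseminated cells. Every disseminated sample lay above every adenoma, a difference of 1.87 (standard error 0.49, adjusted p = 0.0113). Metastases were 1.58 above adenomas (adjusted p = 0.0257), with 1 of 5 inside the adenoma range, and that call was lost without adenoma replicate 3 (1.51, adjusted p = 0.0556) or 4 (1.52, adjusted p = 0.0527) or metastases replicate 4 (1.04, adjusted p = 0.0751). Against carcinomas the difference of 1.40 in disseminated cells (adjusted p = 0.0315) was lost when any of carcinomas 1 to 5 or disseminated replicate 1, 2 or 6 was left out, with adjusted p between 0.0513 and 0.0747. The other Ctsd probe gave 4.07 in metastases (adjusted p = 0.000245) and 2.30 in disseminated cells (adjusted p = 0.0183), so the probes disagreed in metastases. It also gave 0.72 for disseminated cells against carcinomas (adjusted p = 0.429), where the mean of both probes was not called, and 2.49 for metastases against carcinomas (adjusted p = 0.0102), where the probe used gave 1.10 and was not called.

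Ctsl, a cysteine endopeptidase, had log2 ratios of -2.08, -1.78, -2.22, -2.23 and -2.61 in adenomas and -1.76 to -0.67 (median -1.41) in carcinomas, which did not overlap. That difference of 0.82 was not called (adjusted p = 0.181). Metastases, at -0.70, -1.01, -0.33, 0.85 and -0.42, lay above all adenomas by 1.86 (standard error 0.41, adjusted p = 0.00222). Disseminated cells were spread from -2.56 through -0.59 to 0.13, with replicate 3 among the adenomas, and their difference from adenoma was 1.37 (standard error 0.39, adjusted p = 0.0182).

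Ctsh, an aminopeptidase of the papain family, had the smallest slope on the macrophage list among the members. Its log2 ratios were 4.54, 4.89, 5.14, 4.56 and 4.56 in adenomas and 5.17 to 6.12 (median 5.71) in carcinomas, a difference of 0.94 that was not called (adjusted p = 0.0604). Metastases were at 5.88, 5.78, 6.18, 6.78 and 5.57, all above the adenomas, by 1.30 (standard error 0.33, adjusted p = 0.00659). With Aquantile normalization between arrays, or in the deposited matrix, the difference was 0.95 or 0.99, short of the 2-fold limit. Disseminated cells ran from 4.21 through 5.13 to 6.44 and overlapped every other group (difference from adenoma 0.55, adjusted p = 0.238).

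**Figure D1:**
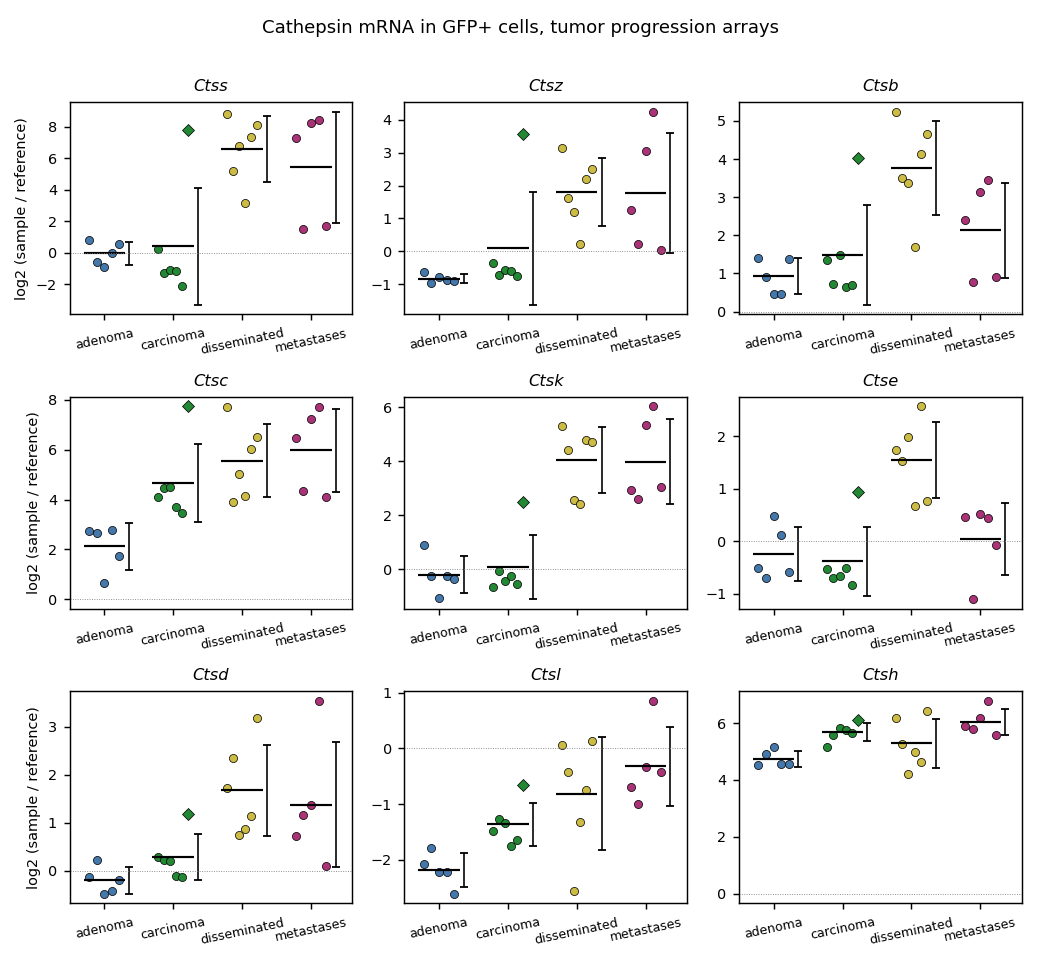
Log2 ratio of sample to reference (vertical axis) of the 9 cathepsins in each progression sample, with the group mean (horizontal line) and SD (bar to the right). Carcinoma replicate 6 is drawn as a diamond. For Ctss it sits at 7.77 among the disseminated cells, whereas the other 5 carcinomas lie between -2.09 and 0.23.

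Counted over the members, 8 of 9 were called higher in disseminated cells than in adenomas and 0 lower, where 10.5% of all genes were called in either direction and 4.65% higher (limma, adjusted p below 0.05 and at least 2-fold). Metastases were higher than adenomas for 7 of 9 (14.6% of all genes called, 6.09% higher). Against carcinomas 5 of 9 were called higher in disseminated cells (11.6% of all genes called, 5.5% higher), namely Ctsb, Ctsd, Ctse, Ctsk and Ctss. In metastases 2 of 9, Ctsk and Ctss, were called higher than in carcinomas (10.1% of all genes called, 4.75% higher). Without carcinoma replicate 6 these 2 counts became 6 of 9, with Ctsz added (14.3% of all genes), and 4 of 9, with Ctsl and Ctsz added (13.4% of all genes). The call of Ctss was lost when any of carcinomas 1 to 5 or metastases replicate 1, 3 or 4 was left out, with log2 differences of 4.28 to 4.99. In metastases against carcinomas the other probes of Ctsb (1.61) and Ctsd (2.49) passed both thresholds. With the mean of a gene's probes 3 members were called there, Ctsd being added. Ctse was the 1 member called between metastases and disseminated cells (7.12% of all genes called, 3.69% lower). Between carcinoma and adenoma 0 of 9 were called by limma (3.3% of all genes), with 3 of 9, Ctsc, Ctsh and Ctsl, at an unadjusted p below 0.05. The share of all genes at that unadjusted threshold was not counted.

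The median log2 change of the 9 members was 2.64 in disseminated cells and 1.86 in metastases against adenomas, where the median over all genes was -0.01 and 0.01. Against carcinomas the medians were 1.72 and 1.10 (-0.07 and -0.05 over all genes), and from adenoma to carcinoma 0.56 (0.06 over all genes). Without carcinoma 6 that last median was 0.23, and Ctse, Ctsk and Ctss had negative differences (-0.40, -0.19 and -1.05, none called). Disseminated cells did not overlap adenomas for 7 of 9 members (9.37% of all genes), and metastases did not overlap adenomas for 6 of 9 (21.6% of all genes). The counts without overlap were 3 of 9 for carcinomas against adenomas (10.6% of all genes), 0 of 9 for disseminated cells against carcinomas (7.23%), 1 of 9 for metastases against carcinomas (13.7%) and 1 of 9 for metastases against disseminated cells (4.18%). Carcinoma 6 set the counts against carcinomas, which were 6 of 9 in disseminated cells (19.1% of all genes) and 4 of 9 in metastases (26.3%) without it, while carcinomas against adenomas stayed at 3 of 9 (16.3%). These comparisons share their adenomas or carcinomas, so they are not independent of each other. Within slides 4, 5 and 6, the difference of disseminated cells from adenomas was 8.06, 7.07 and 5.06 for Ctss and 4.68, 3.99 and 4.47 for Ctsk, and the calls of the 8 members were kept with slide as a fixed block. Metastases exceeded carcinomas in Ctsk by 4.34, 5.04 and 1.64 on slides 1, 2 and 3, whereas Ctss differed by 6.16, 8.29 and -1.32. Slide 3 held carcinoma 6 and only 1 metastasis, replicate 2, which had a macrophage mean of 0.53 and Ctss at 1.51.

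To separate members that follow macrophages from those that follow tumor cells, the slope of each gene on the macrophage mean and on the epithelium mean was fitted across the 22 progression arrays with the groups in the model. A slope is thus the log2 change of the gene per unit of the list mean among samples of the same group. A positive slope on the macrophage list was found for 6 of 9 members, where 5.1% of all genes passed. It was 2.09 for Ctss (95% interval 1.75 to 2.43, adjusted p = 4.40e-08), 0.99 for Ctsz (0.80 to 1.19, adjusted p = 5.42e-07) and 0.96 for Ctsc (0.67 to 1.25, adjusted p = 0.000115). The slope of Ctsb was 0.77 (0.54 to 0.99, adjusted p = 6.75e-05), that of Ctsk 0.75 (0.47 to 1.03, adjusted p = 0.00104) and that of Ctse 0.37 (0.20 to 0.55, adjusted p = 0.00532). The slope of Ctss was the steepest of the members, and its interval did not overlap that of any other. Without carcinoma replicate 6 the slope of Ctse no longer passed (adjusted p = 0.0981), and the other 5 were kept.

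Ctsd, Ctsl and Ctsh followed neither list by this rule. Their slopes on the macrophage list were 0.36 (95% interval 0.09 to 0.63, adjusted p = 0.0801), 0.26 (0.03 to 0.48, adjusted p = 0.154) and 0.15 (-0.04 to 0.35, adjusted p = 0.380). That of Ctsd passed in the deposited matrix and without disseminated replicate 6, and that of Ctsl without disseminated replicate 3. No member had a positive slope on the epithelium list (0 of 9 by limma, 7.93% of all genes; 0 also at an unadjusted p below 0.05). Ctse had a negative one, -0.47 (95% interval -0.71 to -0.23, adjusted p = 0.00767), as had 6.79% of all genes. The highest slope on the epithelium list was that of Ctsh, 0.05 (-0.22 to 0.33, adjusted p = 0.854). No cathepsin therefore met the rule for following tumor cells in the progression arrays.

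**Figure D2:**
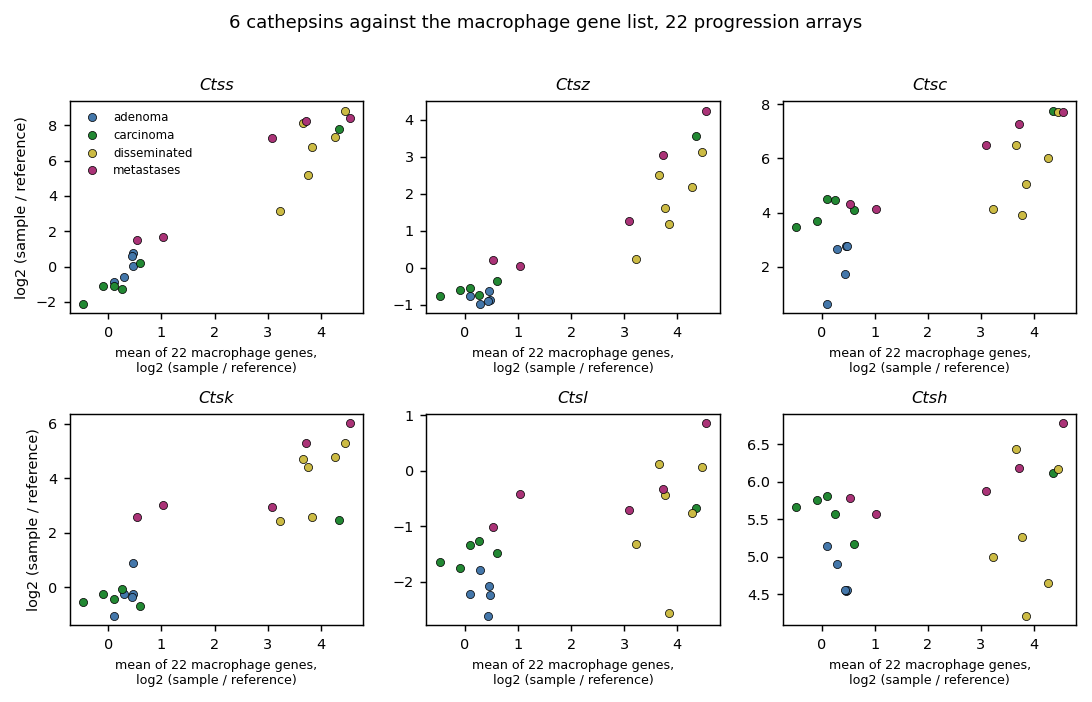
Log2 ratio of 6 cathepsins (vertical axis) against the mean log2 ratio of the 22 macrophage genes (horizontal axis) on the 22 progression arrays, colored by group. Ctss and Ctsz have their highest values where the macrophage mean is high, Ctsk is already at 2.59 and 3.03 in the 2 metastases with macrophage means of 0.53 and 1.03, and Ctsh overlaps across the axis.

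When the macrophage mean entered the model as a covariate, 0 of 9 members were called between disseminated cells and adenomas (limma, 0.212% of all genes), and of the 9 only Ctsk had an unadjusted 95% interval above 0 (1.60, 0.24 to 2.95, adjusted p = 0.417). The macrophage means of those 2 groups do not overlap, so group and covariate can hardly be told apart there. The means of metastases, 0.53 to 4.55, do not overlap those of adenomas, so the same limit holds for metastases against adenomas. Carcinomas overlap the lung samples mainly through carcinoma 6, at 4.35, as the other carcinomas lay between -0.47 and 0.60. Without it they do not overlap disseminated cells (3.23 to 4.46), and metastases reach their range only at the lowest value, 0.53. The covariate fits against carcinomas therefore share this limit in large part. The Ctsk difference of metastases was 2.56 from carcinomas with the covariate (standard error 0.50, adjusted p = 0.00487), where it was 3.90 without, and 2.51 from adenomas (95% interval 1.36 to 3.66, adjusted p = 0.00518), where it was 4.19 without. With carcinoma 6 also left out these were 2.27 (adjusted p = 0.0722, 1.84% of all genes called) and 2.31 (adjusted p = 0.0323, 6.79% of all genes called). Ctsc was the other member called for metastases against adenomas, at 1.72 (adjusted p = 0.0492), and not when carcinoma 6 was left out (1.48, adjusted p = 0.176). Ctsc had a difference of 2.12 between carcinoma and adenoma (95% interval 1.16 to 3.09, adjusted p = 0.00580) and, with carcinoma 6 left out, of 2.22 (adjusted p = 0.00738), with 3.89% and 3.68% of all genes called. Ctss, which differed by 5.45 between metastases and adenomas without the covariate, differed by 0.79 with it (95% interval -0.60 to 2.18, adjusted p = 0.482). The covariate fit called 8.75% of all genes for metastases against adenomas and 5.11% against carcinomas. Between metastases and disseminated cells it called Ctsc (1.66, adjusted p = 0.0299) and Ctsz (1.23, adjusted p = 0.0175) higher and Ctse lower (-1.01, adjusted p = 0.0250), with 7.44% of all genes called, and Ctse was lost without carcinoma 6 (adjusted p = 0.0515, 6.3% of all genes). Between disseminated cells and carcinomas 0 of 9 were called with the covariate (limma, 1.69% of all genes), with unadjusted 95% intervals above 0 for 2 (Ctse and Ctsk) and below 0 for 3 (Ctsc, Ctsh and Ctsz). With carcinoma 6 left out, 0 of 9 were called with the covariate in disseminated cells against adenomas (0.0417% of all genes) or against carcinomas (0.066%), with unadjusted intervals clear of 0 for 0 and 2 members.

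**Figure D3:**
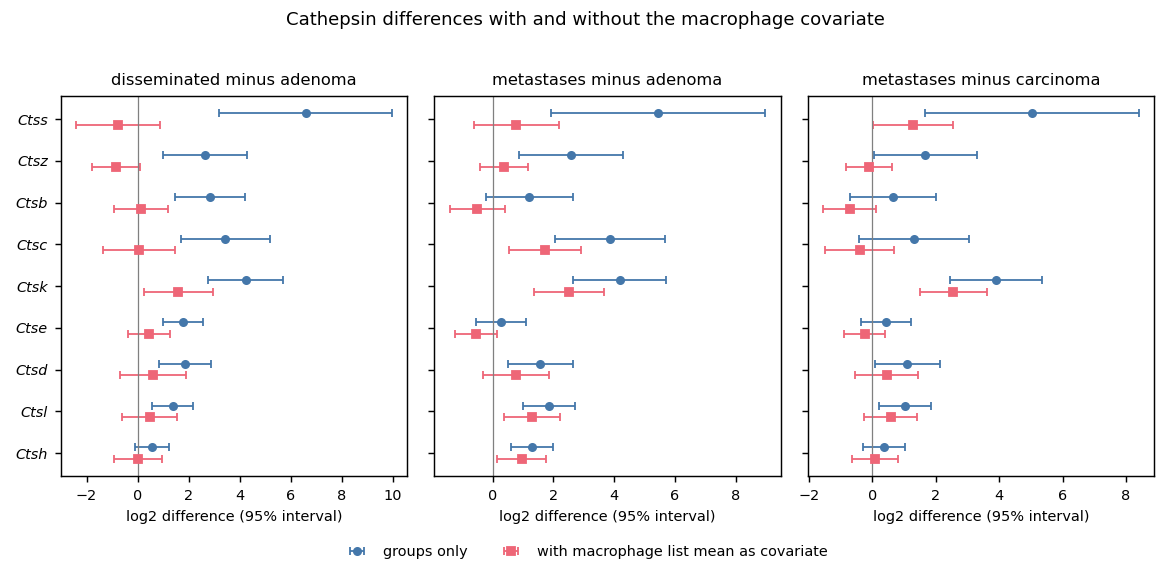
Log2 differences with 95% intervals (horizontal axis) of the 9 cathepsins in 3 comparisons, from the model with groups alone (circles) and with the macrophage mean as a covariate (squares). In disseminated cells against adenomas Ctss moves from 6.58 to -0.76 and Ctsk from 4.24 to 1.60, and in metastases Ctsk moves from 4.19 to 2.51 against adenomas and from 3.90 to 2.56 against carcinomas.

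Among lists of other cell types, the genes of neutrophils also rose in disseminated cells, with 8 of 12 called higher than in adenomas and a median change of 3.51. In metastases 4 of 12 were called higher than in adenomas, with 1 lower, and 8 of 12 were called lower than in disseminated cells, the comparison in which Ctse fell. Of 10 alveolar macrophage genes, 9 were called higher and 1 lower in disseminated cells and 5 higher in metastases, against adenomas. The means of the alveolar macrophage list were 3.92 to 5.13 in disseminated cells, 2.31 to 3.95 in metastases, 1.52 to 2.44 in carcinomas and 1.24 to 1.52 in adenomas. Of 8 lung epithelium genes, 4 were called higher in disseminated cells and 3 in metastases. Of 22 macrophage genes, 19 were called higher in disseminated cells and 12 in metastases. Of 10 endothelium genes, 7 were called higher in disseminated cells and 2 in metastases. Fibroblast genes (0 of 10 higher, 2 lower), T and NK cell genes (2 of 12 higher, 1 lower) and dendritic cell genes (0 of 6 called) gave few calls in disseminated cells against adenomas. The part of these cells in the cathepsin differences was not tested beyond the macrophage covariate.

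The inhibitors of cysteine cathepsins were called in both directions. Of 7 cystatin and stefin genes measured, 3 were called higher in disseminated cells than in adenomas (median change of the 7, 1.79), against 1 higher and 1 lower in metastases (median 0.32). Stfa2l1 and Stfa2, stefins of myeloid cells, were 5.57 (adjusted p = 0.000112) and 3.12 (adjusted p = 0.00343) higher in disseminated cells, and their differences between metastases and disseminated cells were -4.52 (adjusted p = 0.000640) and -3.20 (adjusted p = 0.00340). Against carcinomas they were 4.74 (adjusted p = 0.000123) and 3.21 (adjusted p = 0.00117) higher in disseminated cells. Stfa2l1 was well above background on 2 of 5 adenoma arrays. Cst3, the secreted inhibitor cystatin C, rose by 3.77 in disseminated cells (adjusted p = 0.00220) and 2.34 in metastases (adjusted p = 0.0270). Cstb, the intracellular inhibitor stefin B, was called lower in metastases than in every other group. It had log2 ratios of 1.40 ± 0.27 (SD, n = 5) in adenomas, 0.30 ± 0.21 (SD, n = 6) in carcinomas, 1.10 ± 1.19 (SD, n = 6) in disseminated cells and -0.90 ± 0.27 (SD, n = 5) in metastases. Its difference in metastases was -2.31 against adenomas (adjusted p = 0.000352), -1.21 against carcinomas (adjusted p = 0.0297) and -2.01 against disseminated cells (adjusted p = 0.00215). Cst7, an inhibitor of leukocytes, and Cst6, of epithelium, were called only between disseminated cells and carcinomas, at 2.15 (adjusted p = 0.0315) and -2.09 (adjusted p = 0.0335). Of 22 fits that left out 1 sample, 7 lost the call of Cst7, 5 that of Cst6, 6 that of Cstb against carcinomas and 4 that of Cst3 in metastases, with log2 differences of 1.73 to 2.30 for Cst3.

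Other lysosomal proteases rose in disseminated cells, and none was called higher in metastases than in adenomas. Of 11 measured, 8 were called higher and 1 lower in disseminated cells than in adenomas (median change 1.53), and 0 were called higher and 1 lower in metastases (median 0.29). Those called were Napsa, an aspartic protease of lung epithelium (4.04, adjusted p = 0.00175), Lgmn, the asparaginyl endopeptidase that processes cathepsins (3.32, adjusted p = 0.0151), Prcp (1.81, adjusted p = 0.00306), Dpp7 (1.73, adjusted p = 0.0206), Scpep1 (1.55, adjusted p = 0.00289), Ctsa (1.53, adjusted p = 0.0103), Tpp1 (1.31, adjusted p = 0.00275) and Ctso (1.04, adjusted p = 0.0282). With the macrophage covariate the difference of Lgmn between disseminated cells and carcinomas turned from 2.49 to -1.22 (adjusted p = 0.0483). The macrophage means of these groups overlap only through carcinoma replicate 6, so group and covariate can hardly be told apart there. Between metastases and disseminated cells Ctsa, Prcp, Scpep1 and Tpp1 fell, by 1.58 (Ctsa) at most. Of 22 fits that left out 1 sample, 5 lost the call of Ctso in disseminated cells, 1 that of Dpp7, 5 that of Tpp1 in metastases against disseminated cells and 10 that of Lgmn against carcinomas. Ctsw, a cathepsin of cytotoxic lymphocytes, was lower than in adenomas in every later group, at -1.85 in carcinomas (adjusted p = 0.0110), -1.67 in disseminated cells (adjusted p = 0.0117) and -2.32 in metastases (adjusted p = 0.000993). With Aquantile normalization the first 2 of these calls were lost (-1.10, adjusted p = 0.127, and -0.73, adjusted p = 0.257).

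Other genes of the lysosome were called higher in part. Of 26 hydrolases and membrane proteins, 13 were called higher and 0 lower in disseminated cells than in adenomas (median 1.47), and 11 higher and 2 lower in metastases (median 1.11). The largest changes were those of Hexa, a subunit of hexosaminidase (4.21 in disseminated cells, adjusted p = 0.00609), Npc2, which moves cholesterol out of lysosomes (3.14 in metastases, adjusted p = 0.00412), and Acp5, the tartrate-resistant phosphatase that marks osteoclasts (2.91 in metastases, adjusted p = 0.00543). Of 16 genes of lysosomal delivery and acidification, 6 were called higher in disseminated cells (median 0.96) and 3 in metastases (median 0.26). Atp6v0d2, a proton pump subunit of osteoclasts and macrophages, was not well above background on any carcinoma array, where its mean log2 ratio was -0.89, beside 1.37 in disseminated cells (adjusted p = 0.00101). Atp6v1h rose by 2.21 in metastases against adenomas (adjusted p = 0.0107), and Gnptab, which adds the mannose phosphate tag of lysosomal enzymes, by 1.62 in disseminated cells against carcinomas (adjusted p = 0.00522).

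The class II genes had their lowest group mean in carcinomas, 2.45 beside 4.16 in adenomas, 4.28 in disseminated cells and 4.05 in metastases. Of 7, 4 were called lower in carcinomas than in adenomas and 0 higher. Ctss itself differed by 0.42 there (adjusted p = 0.896), and by -1.05 without carcinoma 6 (adjusted p = 0.645). H2-Eb1 fell by 2.76 (adjusted p = 0.0172), H2-Aa by 2.45 (adjusted p = 0.00499), the class II transactivator Ciita by 2.08 (adjusted p = 0.00690) and H2-DMa by 2.00 (adjusted p = 0.0484). Against carcinomas 4 of 7 were higher in disseminated cells and 4 of 7 in metastases, among them Cd74, the invariant chain (3.39, adjusted p = 0.00487, and 2.54, adjusted p = 0.0383). H2-Aa, at 2.27 and 2.07, and H2-Eb1, at 2.77 and 2.07, were called in both comparisons, H2-DMa (2.07) in disseminated cells and H2-Ab1 (1.91) in metastases. Against adenomas 0 of 7 were called in disseminated cells (median 0.01), a comparison in which Ctss differed by 6.58, and in metastases H2-Ab1 was higher (1.99) and Ciita lower (-2.11). Several of these calls lay near the threshold. That of H2-DMa in carcinomas was lost in 17 of 22 fits that left out 1 sample (-2.15 to -1.75), that of H2-Eb1 without adenoma replicate 3 (-2.52), and that of H2-Ab1 in metastases against adenomas in 7 (1.76 to 2.01). In metastases against carcinomas Cd74 (2.15 to 2.58) and H2-Eb1 (1.71 to 2.01) were lost when any 1 of carcinomas 1 to 5 or metastases replicates 1, 3 and 4 was left out, and H2-Ab1 (1.68 to 1.91) in 14 such fits.

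For each member, the 3 genes with the most similar log2 ratios over the 22 progression arrays were named from 13764 genes that were well above background on every array. These likenesses, given as Pearson's r, include the differences between groups and carry no test. Ctss was most like Mpeg1 (0.98), Tgfbi (0.98) and Plek (0.97), and Ctsz like Hexa (0.97), Gusb (0.96) and Ccl9 (0.96). Ctsc went with Apoe (0.96), Hexa (0.91) and Fth1 (0.90), and Ctsb with Abca1 (0.94), Nceh1 (0.93) and Lyz1 (0.93). Mpeg1 is itself a gene of the macrophage list and Chil3 of the alveolar macrophage list. Ctsk was most like Cndp2 (0.96), Chil3 (0.94) and Ccl9 (0.94), and Ctse like TC1500867 (0.96), Arhgap30 (0.96) and Ptpn6 (0.95). Ctsd went with Lrp12 (0.93), Mfsd1 (0.90) and Hexa (0.89), Ctsl with Pgam1 (0.89), Inhba (0.89) and Cmtm3 (0.88), and Ctsh with Spcs2 (0.87), Sdf2l1 (0.87) and Tmem176a (0.86).

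No cathepsin passed the test between untreated, residual and relapsed tumors. By limma 0 of 9 were called in residual against untreated tumors (0.0938% of all genes called), 0 of 9 in relapsed against untreated (0.0104%) and 0 of 9 in relapsed against residual tumors (0.212%). The counts at an unadjusted p below 0.05 were 1, 1 and 2 of 9, a threshold at which the share of all genes was not counted. The groups overlapped for each member in every comparison (0.775%, 1.66% and 1.68% of all genes did not overlap). The median log2 change of the 9 was -0.07, -0.01 and -0.09, beside -0.0038, 0.0129 and 0.015 over all genes.

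Ctss again had the widest spread. Its log2 ratios in untreated tumors ran from -2.06 through a median of 0.05 to 1.82, in residual tumors from -1.14 through -0.78 to 0.91, and in relapsed tumors they were -1.55, -1.62, -0.33 and -3.05. Relapsed tumors lay at the low end, with a difference of -1.59 from untreated tumors whose 95% interval ran from -3.24 to 0.06 (adjusted p = 0.673). The macrophage mean moved alongside, from -0.40 to 2.06 in untreated, -0.52 to 1.28 in residual and -0.79 to 0.55 in relapsed tumors. Untreated replicate 1 and residual replicates 1 and 2, which shared slide 2, had Ctss at 1.72, 0.62 and 0.91, and within that slide the difference of the residual tumors from the untreated one was -0.95.

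Ctsz was the member with the smallest p in residual against untreated tumors. It was at -0.78 to -0.42 (median -0.59) in untreated, -1.26 to -0.60 (median -1.03) in residual, and -0.79, -0.68, -0.43 and -0.66 in relapsed tumors. Of the 6 residual tumors 4 lay below all untreated ones, a difference of -0.37 (95% interval -0.60 to -0.13) that did not pass (adjusted p = 0.297). Its other probe gave -0.40. Ctsb differed by -0.40 between relapsed and residual tumors (95% interval -0.66 to -0.13, adjusted p = 0.377).

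For the remaining members the intervals against untreated tumors, from a fit without slide, stayed within about 2-fold. The 95% interval of residual minus untreated reached at most from -0.75 (Ctsc) to 0.55 (Ctsl) on the log2 scale among members other than Ctss. For relapsed minus untreated it reached from -0.90 (Ctsc) to 0.59 (Ctsd). Untreated replicates 2 to 5 were alone on chemotherapy slide 1 and residual replicates 3 to 5 alone on slide 3, so treatment and slide largely coincide. Within slide 2 (2 residual tumors, 1 untreated), the differences ran from -0.70 (Ctsz) to 0.74 (Ctsb) among members other than Ctss. Those of Ctsb, Ctsh, Ctsl and Ctsz lay outside their intervals from the fit without slide. Ctsh was at 5.20 to 6.07 and Ctsl at -2.47 to -1.53 in all 16 tumors.

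Within the chemotherapy groups, 4 of 9 members had a positive slope on the macrophage list, where 5.15% of all genes passed. These were Ctss (1.49, 95% interval 1.29 to 1.70, adjusted p = 7.87e-08), Ctsc (0.34, 0.16 to 0.52, adjusted p = 0.0205), Ctsl (0.24, 0.11 to 0.38, adjusted p = 0.0256) and Ctse (0.24, 0.09 to 0.39, adjusted p = 0.0415). With slide as a fixed block or a normexp offset of 0, 1 of the 4 was kept, Ctss (1.57, adjusted p = 9.42e-06, with the block). With Aquantile normalization or in the deposited matrix 6 passed, Ctsd and Ctsh being added. Of 16 fits that left out 1 tumor, 11 lost the call of Ctse (0.21 to 0.26), 3 that of Ctsc and 3 that of Ctsl, and 0 that of Ctss. Ctsb and Ctsz, which had slopes of 0.77 and 0.99 in the progression arrays, had 0.03 (95% interval -0.10 to 0.17) and 0.02 (-0.11 to 0.16) here. The intervals of the 2 experiments do not overlap for either gene, but the experiments were normalized apart. The study describes 2 rounds of amplification only for the progression RNA. The macrophage mean spanned -0.79 to 2.06 in chemotherapy and -0.47 to 4.55 in progression. The difference between the slopes of the 2 experiments was not tested. Ctsk was the 1 member with a positive slope on the epithelium list (1.55, 95% interval 0.79 to 2.30, adjusted p = 0.0376, 1.29% of all genes), and it had none that passed on the macrophage list (0.21, adjusted p = 0.213). Its probe was well above background on 5 of 6 untreated, 5 of 6 residual and 4 of 4 relapsed arrays. The epithelium mean spanned 3.71 to 4.33 in these tumors, a narrow range, and the call was lost with median centring, Aquantile normalization, the deposited matrix and slide as a fixed block, and in 12 of 16 fits that left out 1 tumor (1.23 to 1.84).

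**Figure D4:**
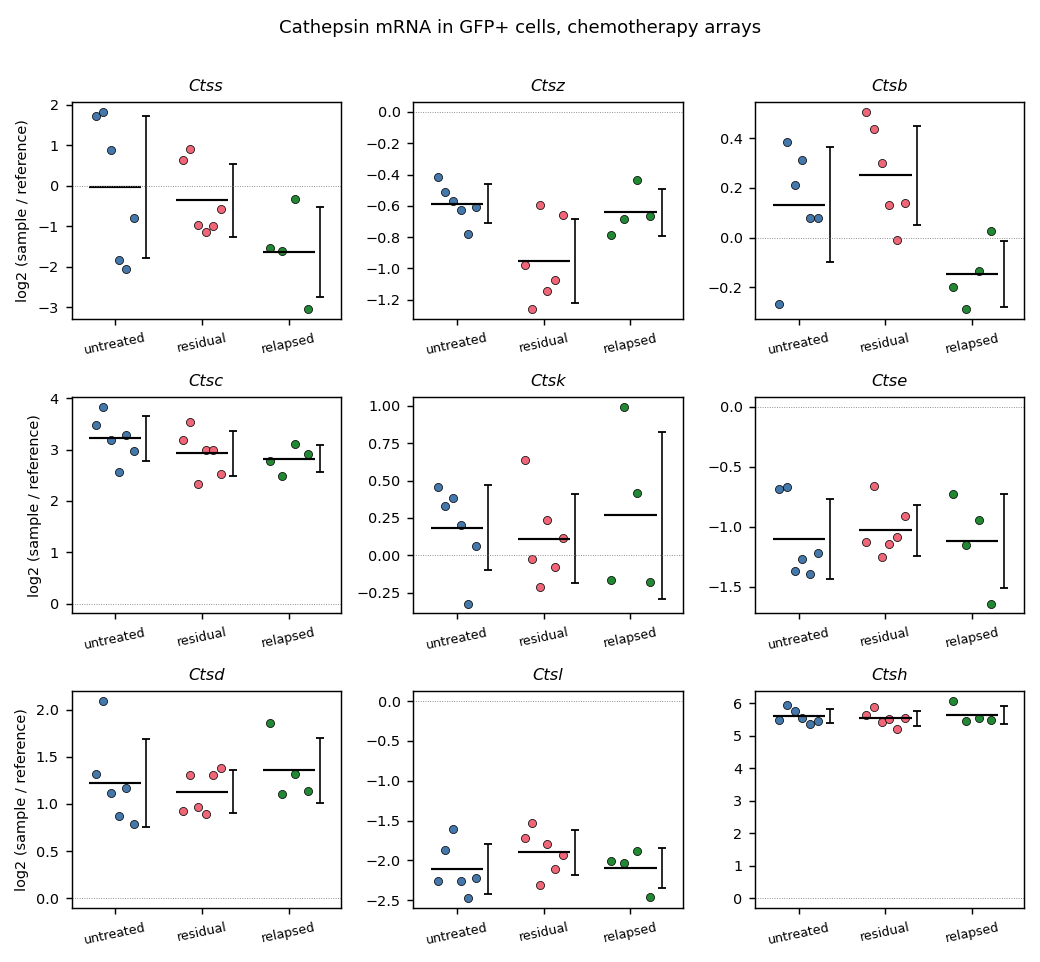
Log2 ratio of sample to reference (vertical axis) of the 9 cathepsins in each untreated, residual and relapsed tumor, with the group mean (horizontal line) and SD (bar to the right). The groups overlap for each gene, and the widest spread is that of Ctss, from -3.05 to 1.82.

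Of the genes around the cathepsins, 0 of 7 inhibitors, 0 of 11 other lysosomal proteases and 0 of 26 lysosomal hydrolases and membrane proteins were called in any chemotherapy comparison by limma. At an unadjusted p below 0.05 there were 2, 3 and 0 inhibitors, 3, 0 and 0 other proteases and 4, 7 and 4 hydrolases and membrane proteins in residual against untreated, relapsed against untreated and relapsed against residual tumors. All 7 inhibitors had positive changes in residual against untreated tumors (median 0.43). Of the 7 class II genes, H2-DMa fell by 1.66 in relapsed against residual tumors (standard error 0.30, adjusted p = 0.0248), with log2 ratios of 1.03 ± 0.62 (SD, n = 6) in residual, -0.63 ± 0.18 (SD, n = 4) in relapsed and 0.23 ± 0.53 (SD, n = 6) in untreated tumors. All 7 class II genes were lower in relapsed than in residual tumors, with a median change of -1.64. The call of H2-DMa was lost when any 1 of the 4 relapsed tumors or residual replicate 1 was left out (-1.73 to -1.52). In that comparison the change of Ctss was -1.28 (95% interval -2.93 to 0.37, adjusted p = 0.759).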

How the data were processed

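Arrays were scanned and read with Agilent Feature Extraction 10.7, per the file headers, and the deposited scanner files hold its spot intensity in both channels. The authors also deposited a matrix of log2 ratios made with limma (normexp, loess, quantile); its columns correlated with the values used here at 0.966 to 0.9985. Here, intensities were background-corrected (normexp, offset 50), loess-normalized within arrays and quantile-normalized between arrays, separately for the 22 progression and 16 chemotherapy arrays (R 4.3.3, limma 3.58.1). Control and outlier-flagged spots (148 to 473 per array, 0 at cathepsin probes) were left out. Replicate spots were averaged, and each of 28786 genes was taken from its brightest probe. Groups came from the labels. Comparisons and slopes used limma (lmFit, eBayes) with Benjamini-Hochberg adjustment over all genes, and a call needed an adjusted p below 0.05 and at least 2-fold (for slopes, the p alone). Shares over all genes were not counted for unadjusted p-values or intervals, so such counts of members have no background beside them. The number of arrays limits the precision. The fits were tested on simulated data. Samples were not paired by replicate number, as the labels name no pairing. Correlations of deviations between samples of the same number ran from -0.41 to 0.42. With 4 to 6 shared numbers per comparison, they cannot decide whether samples were paired. Named were the 9 members, the 3 genes most like each, the called inhibitors, lysosomal proteases and class II genes, and up to 3 called genes of other lysosomal lists. The members and lists were chosen with earlier results of these data known. Alternatives covered background correction, normalization, probe choice, dim probes, slide and replicate blocks, thresholds, the macrophage covariate and leaving out each sample; the covariate fit without carcinoma replicate 6 was added after seeing the data.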

Additional observations from a re-analysis of the deposited data

Results flagged for a closer look

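Carcinoma replicate 6 lay far from the other 5 carcinomas for 7 of the 9 cathepsins. Its log2 ratio was 7.77 for Ctss (others -2.09 to 0.23), 7.74 for Ctsc (3.45 to 4.51), 4.03 for Ctsb (0.64 to 1.48), 3.56 for Ctsz (-0.75 to -0.37), 2.47 for Ctsk (-0.68 to -0.07), 1.18 for Ctsd (-0.13 to 0.29) and 0.94 for Ctse (-0.82 to -0.50). The mean of the macrophage list was 4.35 in the same sample (others -0.47 to 0.60) and that of the mammary tumor epithelium list 2.17 (others 3.23 to 3.73). Metastases replicate 4 had an epithelium mean of 0.46, whereas the other 4 metastases were between 3.15 and 4.21. Relapsed replicate 1 had Ctsh at 6.07, whereas the other 3 relapsed tumors were between 5.46 and 5.56. Of 77 groups of values examined in this way, chance alone places about 1 in 20 beyond the limit used (Dixon's gap test).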

How the results depend on the processing

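Of 146 counts of cathepsins under alternatives, 114 were equal to the reported count or within 1.5 times of it. Of 990 log2 changes, 918 kept their side of the threshold, 55 lost and 17 gained a call. The sign changed in 72 of the 990, and 0 of these were called in both fits. Among the 72 were Ctss and Ctsz in disseminated cells against adenomas, called at 6.58 and 2.64 and at -0.76 and -0.85 with the macrophage covariate. With the macrophage mean as a covariate, the members called numbered 1 for carcinomas against adenomas (0 without it), 0 for disseminated cells against adenomas (8), 2 for metastases against adenomas (7), 0 for disseminated cells against carcinomas (5), 1 for metastases against carcinomas (2) and 3 for metastases against disseminated cells (1); with carcinoma 6 also left out they were 1, 0, 1, 0, 0 and 2. With an adjusted p below 0.01 they were 5, 4, 3, 1 and 0 in the last 5 comparisons. Aquantile normalization, the deposited matrix and a filter on dim probes gave 1 (Ctsc) for carcinomas against adenomas, and the first 2 of these gave 2 for metastases against disseminated cells. The replicate block raised metastases against carcinomas from 2 to 5 and lost Ctsz in disseminated cells against adenomas (adjusted p = 0.0512). Whether samples of the same replicate number belong together is not known from the labels. Positive macrophage slopes in chemotherapy, 4 as reported, numbered 1 when the normexp offset was 0, 1 when slide was blocked, and 2 from processed scanner signals. They numbered 3 with median centring and 6 with Aquantile normalization or in the deposited matrix, where Ctsd and Ctsh were added. In progression they numbered 7 in the deposited matrix (6 reported), with Ctsd added. In chemotherapy, epithelium slopes numbered 3 with processed signals and 2 with the dim filter (1 reported). They numbered 0 there with median centring, Aquantile, the deposited matrix or the slide block. Lgmn in disseminated cells against carcinomas reversed to -1.22 with the covariate (2.49 reported). The causes were not tested.

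Leaving out each sample in turn gave 0 to 1 members called for carcinomas against adenomas, 7 to 8 for disseminated cells against adenomas (7 without disseminated replicate 1), 4 to 7 for metastases against adenomas (4 without metastases replicate 4), 4 to 6 for disseminated cells against carcinomas, 1 to 4 for metastases against carcinomas (4 without carcinoma replicate 6), 1 to 2 for metastases against disseminated cells and 0 in each chemotherapy comparison. Macrophage slopes numbered 5 to 7 in progression and 1 to 4 in chemotherapy (1 without untreated replicate 2 or residual replicate 2), and epithelium slopes 0 and 0 to 1. Signal over background limited Ctsk in adenomas (well above background on 3 of 5 arrays) and, to a lesser degree, in untreated and residual tumors (5 of 6 each).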
